A study of Mus musculus with 2 samples.

Results

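The 7SK RNA and the proteins that hold or form positive transcription elongation factor b (P-TEFb) were described in granulocyte-monocyte progenitors (GMP), marrow precursors of neutrophils and monocytes. The set has 8 genes of the 69691 rows of each gene table: the RNA gene Rn7sk and the protein genes Larp7, Mepce, Hexim1, Hexim2, Cdk9, Ccnt1 and Ccnt2. They were taken by symbol and not by a threshold on their values, though with earlier results of these data known, and each symbol matched a single Ensembl row. The series holds 1 group of 2 total RNA-seq libraries, called replicate 1 and replicate 2 after the biological replicate numbers that the labels give. Each came from a pool of 100 primary GMP of adult male C57BL/6J mice aged 5 to 6 weeks, with spike-in RNA added and RNA above 200 bases named as the size range. No genotype change, agent or control group is named, and each library is given as technical replicate 1. A single donor identifier is given for both, with a sample identifier for each. The labels do not say whether the pools came from separate animals, so the spread between them may be technical. With 2 libraries of 1 group there is no comparison between conditions and no test, and the values below are descriptions.

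P-TEFb is a kinase, CDK9, joined to a cyclin T, encoded by Ccnt1 or Ccnt2. It phosphorylates RNA polymerase II and the factors that hold the polymerase paused near the start of genes, and so lets it move into productive elongation. 7SK is an abundant nuclear RNA made by RNA polymerase III, and it serves as a scaffold that keeps part of the cell's P-TEFb inactive. MEPCE caps the 5′ end of 7SK and stays bound, LARP7 binds its 3′ end and protects it, and HEXIM1 or HEXIM2, once bound to the 5′ hairpin of the RNA, blocks the kinase. Release of P-TEFb from this particle is one way in which cells raise transcription, for example during the growth and differentiation of blood cells.

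Rn7sk (ENSMUSG00000065037, annotated as misc_RNA) is a gene of 331 bases on chromosome 9, from 78175303 to 78175633 on the minus strand of mm10. Its first 110 bases are shown because HEXIM proteins are known to bind GATC repeats (GAUC in the RNA) in the 5′ hairpin. The 3 matches to GATC are in capitals, the sequence is written 5′ to 3′ as DNA, and it was taken from the GENCODE M21 transcripts.
Rn7sk, bases 1 to 110 (chr9:78175524-78175633, minus strand): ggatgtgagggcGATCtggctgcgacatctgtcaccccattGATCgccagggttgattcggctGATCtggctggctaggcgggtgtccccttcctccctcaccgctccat
The motif GATC, which reads the same on both strands, begins at bases 13, 42 and 64 counted from the 5′ end and does not occur elsewhere in the RNA. Of 138029 annotated transcripts of at least 110 bases, 25.5% hold it at least once in their first 110 bases and 0.427% at least 3 times. These matches describe the letters only, and which of them lie in the 5′ hairpin was not examined. Binding was not measured.

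The mouse annotation holds many other genes that resemble Rn7sk, and reads that fit several of them equally cannot be assigned by sequence alone. A search with BLAST found 232 other misc_RNA genes that matched Rn7sk, of which 11 reached 90% identity over 100 bases or more. The 3′ ends of Rn7sk and of the 2 closest matches are shown because this is where they part. Capitals mark the bases of Rn7sk beyond base 241, the median last aligned base of those 11 matches, and in each match the bases beyond its own alignment.
Rn7sk, bases 201 to 331 (chr9:78175303-78175433, minus strand): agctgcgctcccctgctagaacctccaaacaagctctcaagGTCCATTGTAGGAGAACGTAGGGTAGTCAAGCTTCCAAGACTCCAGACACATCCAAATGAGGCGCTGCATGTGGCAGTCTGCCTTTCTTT
Gm24447, bases 201 to 338 (chr15:93234563-93234700, plus strand): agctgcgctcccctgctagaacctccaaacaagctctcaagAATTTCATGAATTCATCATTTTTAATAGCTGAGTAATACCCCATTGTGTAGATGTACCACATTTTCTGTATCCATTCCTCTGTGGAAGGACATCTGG
Gm26315, bases 201 to 321 (chr2:7076094-7076214, minus strand): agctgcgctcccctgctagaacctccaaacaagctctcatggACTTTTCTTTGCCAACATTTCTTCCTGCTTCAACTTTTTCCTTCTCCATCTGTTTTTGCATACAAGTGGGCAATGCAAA
Gm24447 was identical to Rn7sk over 241 bases, and Gm26315 was 99.6% identical over its aligned stretch. Beyond it neither resembles the last part of Rn7sk, which ends in a run of 3 T. At the most covered bases of Rn7sk, 65 to 68, 213 of the 232 matches were aligned. That number was 78 at base 241, 45 at base 242 and 12 at base 250. Of the 232, 10 matches ran past base 250 and 6 past base 300. Gm23037 on chromosome 17 was just outside the identity limit, at 89.2% over 332 aligned positions, and ran the whole length.

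**Figure D1:**
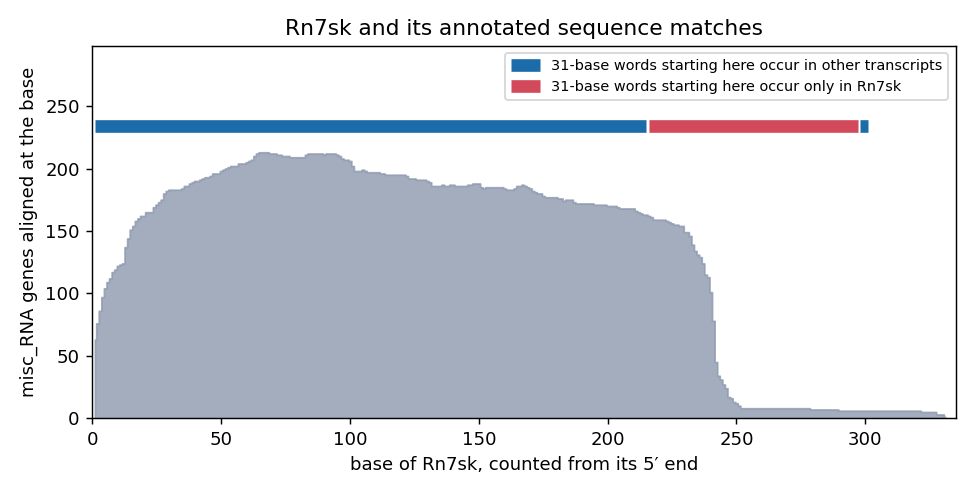
Number of other misc_RNA genes aligned to each base of Rn7sk (grey, vertical axis) against the base counted from the 5′ end. The bar above shows where 31-base words of Rn7sk begin that occur in other annotated transcripts (blue) or only in Rn7sk (red). Matches peak at 213 at bases 65 to 68 and number 12 at base 250.

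Of the 301 words of 31 bases that Rn7sk contains, 219 also occurred, on the same strand, in at least 1 of 25 other annotated transcripts. The 82 words that begin at bases 216 to 297 occurred only in Rn7sk. Words that begin at bases 1 to 215 were shared with up to 10 transcripts. The last 4 words, which begin at bases 298 to 301, were shared with 1.

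The deposited tables gave nearly all of these reads to Rn7sk. Rn7sk held 88474 expected counts (estimated reads) in replicate 1 and 95044 in replicate 2. All 232 matches together held 47.5 counts in replicate 1, equal to 0.0537% of the Rn7sk count, and 98.4 in replicate 2, equal to 0.104%. The 11 close matches held 24.5 and 24.4 counts. Gm24447 had 2.02 counts in replicate 1 and 0 in replicate 2, Gm26315 had 8.28 and 7.35, and Gm23037 had 0 in both. Only 6 of the 232 reached 10 counts in either library. Gm26407 had 0 counts in replicate 1 and 26.0 in replicate 2, Gm26035 had 5.23 and 13.9, Gm23657 had 0 and 15.0, Gm25082 had 14.0 and 0, and Gm24860 had 0 and 14.0. The deposited posterior SD of the Rn7sk count, which covers the doubt in assigning reads, was 3.11 counts in replicate 1 and 4.59 in replicate 2. Whether reads from the shared part were assigned correctly was not tested.

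Rn7sk was the fourth highest Ensembl row by TPM (transcript abundance, counts per effective length scaled to a fixed total) in both libraries. It had 17392 TPM in replicate 1 and 20600 in replicate 2, a mean of 18996 ± 2268 TPM (SD, n = 2). It took 1.74% of all TPM in replicate 1 and 2.06% in replicate 2. Its share of expected counts was 0.218% (95% Wilson interval 0.217 to 0.2198) in replicate 1 and 0.266% (0.2647 to 0.2681) in replicate 2, with a mean of 0.242 ± 0.0339% (SD, n = 2). These intervals do not overlap, but they are narrow because reads are many. They cover counting error only, since no molecular identifiers are named, and leave out amplification and the spread between pools. The share of TPM was larger than the share of counts because TPM divides by an effective length of 173 bases in replicate 1 and 176 in replicate 2. With Gm42418, Gm26917 and the mitochondrial genes left out of the total, the mean share of counts was 0.449 ± 0.0585%.

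The libraries held 40509954 expected counts in replicate 1 and 35675702 in replicate 2, which makes a limit of 3 counts equal to 0.0741 and 0.0841 CPM (counts scaled to the library total). Gm42418 and Gm26917 took 31.9% and 30.1% of counts and mitochondrial genes 14.6% and 15.6%, so the protein genes rest on a smaller part of each library. All 10 GMP markers were at 1 TPM or more in both libraries, with a summed level of 12416 TPM in replicate 1 and 13516 TPM in replicate 2. Erythroid markers reached 1 TPM in both libraries for 0 of 5 genes (summed 0.370 and 2.09 TPM) and B cell markers for 0 of 4 (0.0100 and 0 TPM, with Cd79a, Ms4a1 and Pax5 at 0). For 1 of 4 megakaryocyte (8.38 and 7.41 TPM), 1 of 4 macrophage (4.48 and 4.99), 1 of 4 stem cell (6.44 and 5.72, with Ly6a at 0), 1 of 4 stroma and endothelium (2.47 and 4.10, with Col1a1 and Col1a2 at 0) and 1 of 5 T and NK cell markers (276 and 261, with Cd3d and Cd3e at 0) both libraries were at 1 TPM or more. The T and NK cell sum was far above those of the other lists outside GMP. Whether it came from lymphoid cells in the pools was not tested.

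All 7 protein genes were at 1 TPM or more in both libraries, where 45.6% of 21474 protein-coding genes were. Their mean levels ran from 2.16 TPM for Hexim2 to 45.9 TPM for Cdk9, with a median of 19.6 TPM. The median of all protein-coding genes was 0.550 TPM, and that of the genes of 1 TPM or more on average was 13.3 TPM. In order of mean TPM, Rn7sk was followed by Cdk9, Ccnt1, Larp7, Ccnt2, Mepce, Hexim1 and Hexim2. Neighbours in this order whose library values did not separate were Ccnt1 and Larp7, Larp7 and Ccnt2, and Ccnt2 and Mepce. Cdk9 lay above Ccnt1, Mepce above Hexim1, and Hexim1 above Hexim2 in every pairing of library values.

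**Figure D2:**
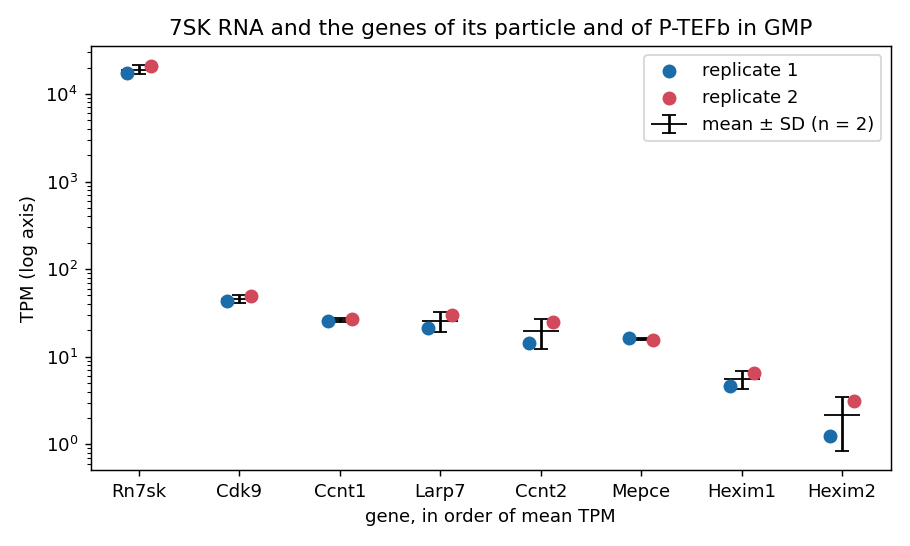
TPM of the 8 genes (log axis) in replicate 1 (blue) and replicate 2 (red), with the mean and SD of the 2 libraries in black. Rn7sk lies near 18996 TPM, Cdk9 at 45.9 TPM is the highest protein gene and Hexim2 at 2.16 TPM the lowest.

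Cdk9, the kinase of P-TEFb (ENSMUSG00000009555, chromosome 2, 32705784 to 32713076, minus strand), had 42.8 TPM in replicate 1 and 49.0 in replicate 2, a mean of 45.9 ± 4.33 TPM (SD, n = 2). These values rest on 2046 and 1950 expected counts. Cdk9 was at or above 92.7% of protein-coding genes by mean TPM, and its 2 libraries were close: the ratio of CPM, replicate 2 over replicate 1, was 1.08 (exact 95% counting interval 1.02 to 1.15).

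Ccnt1, which encodes cyclin T1 (ENSMUSG00000011960, chromosome 15, 98538689 to 98570923, minus strand), had 25.4 TPM in replicate 1 and 27.3 in replicate 2, a mean of 26.4 ± 1.34 TPM (SD, n = 2), from 2552 and 2283 counts. Ccnt2, which encodes cyclin T2 (ENSMUSG00000026349, chromosome 1, 127774164 to 127808061, plus strand), stood at 14.5 TPM and 24.7 TPM, a mean of 19.6 ± 7.19 TPM, from 2514 and 3245 counts. The 2 cyclin genes were further apart in replicate 1 than in replicate 2. On log2(TPM + 1), Ccnt1 exceeded Ccnt2 by 0.77 in replicate 1 and by 0.14 in replicate 2, a mean of 0.45 ± 0.44 (SD, n = 2). The mean was close to its SD. The order also depended on length: Ccnt1 had an effective length of 3416 and 3189 bases and Ccnt2 of 5894 and 5014 bases, and on CPM, which is not per length, Ccnt1 minus Ccnt2 came to 0.02 and -0.50 (log2) in replicates 1 and 2.

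The 2 cyclin genes together were near the level of their kinase on gene TPM. Their sum was 40.0 TPM in replicate 1 and 52.0 TPM in replicate 2, or 0.933 and 1.06 times Cdk9. On log2(TPM + 1) Cdk9 differed from the sum by 0.10 in replicate 1 and by -0.09 in replicate 2, a mean of 0.01 ± 0.13 (SD, n = 2). This near equality did not hold for protein-coding transcripts alone. Their cyclin sum was 15.2 TPM in replicate 1 and 20.4 TPM in replicate 2, or 0.417 and 0.466 times the coding TPM of Cdk9, a log2 difference of 1.14 ± 0.10 in favour of Cdk9.

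Much of the cyclin TPM lay on transcripts annotated as not coding, as the transcript tables show. Shares below are percents of the gene's TPM. Ccnt1 had 37.2% in replicate 1 and 34.2% in replicate 2 on Ccnt1-208, a coding transcript of 7397 bases. Ccnt1-203, a processed transcript of 683 bases, had 31.9% and 38.3%. Ccnt1-206, annotated for nonsense-mediated decay, had 21.7% and 17.7%. Short transcripts weigh more in TPM than in counts: Ccnt1-203 held 125 and 144 of the gene's counts, and its class made up 4.88% and 6.32% of them, whereas the coding class held 78.8% and 77.7%. Ccnt1 also overlaps the antisense gene 9330020H09Rik by 2260 bases, which had 213 counts in replicate 1 and 135 in replicate 2. It is not stated whether counting used strand, so these reads cannot be told apart with certainty.

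Ccnt2 was spread over more transcripts, and 4 of its 7 reached 10% in either library. Ccnt2-201, a coding transcript of 6738 bases, had 39.4% in replicate 1 and 40.9% in replicate 2. Ccnt2-207, a processed transcript of 7640 bases, had 30.6% and 16.8%, and Ccnt2-204, with a retained intron, had 21.4% and 16.1%. Ccnt2-206, a retained-intron transcript of 1040 bases, had 0 counts in replicate 1 and 104 in replicate 2, or 0 and 4.49 TPM, which is 18.2% of the gene in replicate 2. The deposited intervals for this transcript, whose level is not stated, had an upper bound of 0.528 TPM in replicate 1 and a lower bound of 3.27 TPM in replicate 2. Coding transcripts of Ccnt2 held 5.72 TPM in replicate 1 and 11.1 TPM in replicate 2, so the library difference was also present without the other classes.

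Cdk9 was mostly coding. Cdk9-202 had 50.5% of its TPM in replicate 1 and 57.5% in replicate 2, and Cdk9-201 had 34.5% and 31.5%. Cdk9-204, with a retained intron and 3565 bases, had 10% and 5.18%, from 429 and 226 counts. Coding transcripts made up 84.9% and 89.4% of the gene's TPM. Mir2861 lies within the Cdk9 span and was listed at 0 counts in both libraries.

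**Figure D3:**
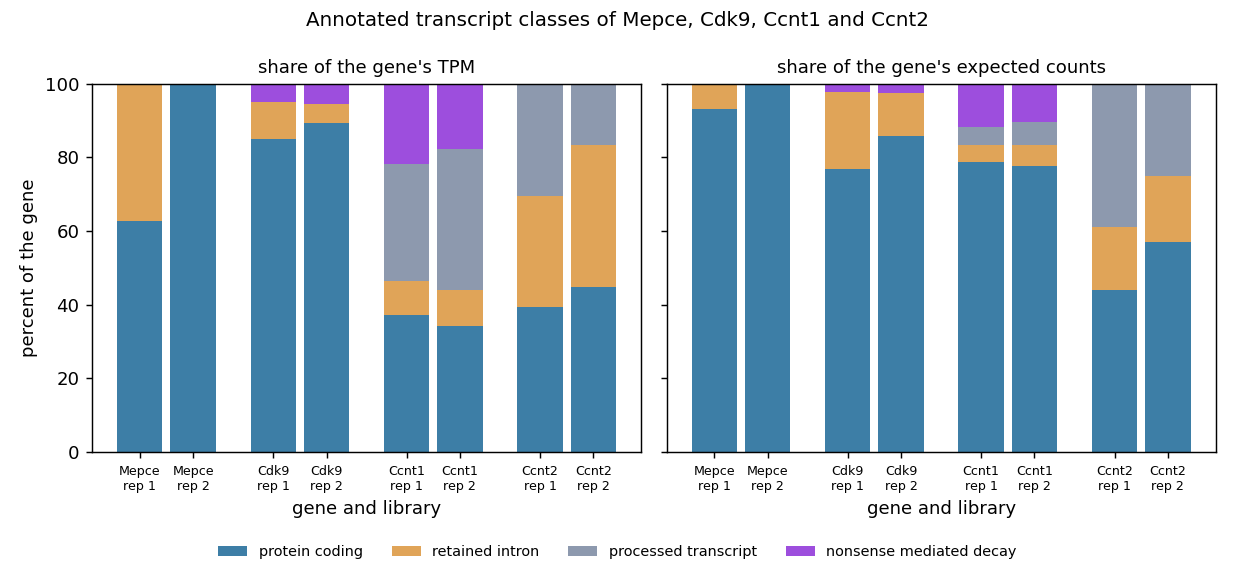
Percent of a gene's TPM (left) and of its expected counts (right) on each annotated transcript class, for Mepce, Cdk9, Ccnt1 and Ccnt2 in replicates 1 and 2. Coding transcripts make up 37.2% and 34.2% of the TPM of Ccnt1 but 78.8% and 77.7% of its counts, and Mepce has a retained-intron share of 37.4% in replicate 1 and 0 in replicate 2.

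The HEXIM inhibitors were the lowest of the set. Hexim1 (ENSMUSG00000048878, chromosome 11, 103116231 to 103119725, plus strand) had 4.65 TPM in replicate 1 and 6.48 in replicate 2, a mean of 5.57 ± 1.29 TPM (SD, n = 2), from 456 and 567 counts. Hexim2 (ENSMUSG00000043372, chromosome 11, 103132429 to 103139876, plus strand) stood at 1.23 TPM and 3.09 TPM, a mean of 2.16 ± 1.32 TPM, from 63.0 and 142 counts. The genes are neighbours on the same strand, with 12703 bases between them. Hexim1 exceeded Hexim2 by 1.34 on log2(TPM + 1) in replicate 1 and by 0.87 in replicate 2, a mean of 1.11 ± 0.33 (SD, n = 2), so the direction held in both libraries and the mean was larger than its SD. All reads of Hexim1 lay on its single transcript, and those of Hexim2 on 1 of its 5.

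Hexim1 and Hexim2 together reached 5.88 TPM in replicate 1 and 9.57 TPM in replicate 2. Cdk9 was 7.28 and 5.11 times that sum. These are ratios of RNA levels, and protein was not measured.

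The proteins that stay on 7SK were intermediate. Larp7 (ENSMUSG00000027968, chromosome 3, 127536714 to 127553349, minus strand) had 21.1 TPM in replicate 1 and 30.3 in replicate 2, a mean of 25.7 ± 6.51 TPM (SD, n = 2), from 1065 and 1367 counts. All lay on the only transcript listed for the gene. The microRNA genes Mir302a, Mir302b, Mir302c, Mir302d and Mir367 lie in its span on the opposite strand and were listed at 0 in both libraries. Mepce (ENSMUSG00000029726, chromosome 5, 137781906 to 137787655, minus strand) stood at 16.4 TPM and 15.6 TPM, a mean of 16.0 ± 0.516 TPM, from 781 and 944 counts. Larp7 exceeded Mepce by 0.35 on log2(TPM + 1) in replicate 1 and by 0.91 in replicate 2, a mean of 0.63 ± 0.40 (SD, n = 2).

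The small SD of Mepce came with a difference in its transcripts. Mepce-203, a retained-intron transcript of 460 bases, had 54.1 counts and 6.13 TPM in replicate 1, or 37.5% of the gene, and 0 counts in replicate 2. Its deposited interval had a lower bound of 2.74 TPM in replicate 1 and an upper bound of 0.801 TPM in replicate 2. Mepce-201, the main coding transcript, had 49.3% of the gene in replicate 1 and 74.4% in replicate 2, and Mepce-202, a shorter coding one, had 13.3% and 25.6%. The coding TPM of Mepce was 10.2 in replicate 1 and 15.6 in replicate 2. Its CPM was 1.37 times higher in replicate 2 (exact 95% counting interval 1.25 to 1.51), although its gene TPM was slightly lower there. For coding transcripts alone, Larp7 exceeded Mepce by 0.97 and 0.91, a mean of 0.94 ± 0.04. By mean coding TPM the order of all 7 proteins became Cdk9 at 40.1 TPM, Larp7 at 25.7, Mepce at 12.9 and Ccnt1 at 9.41. Ccnt2 at 8.38, Hexim1 at 5.57 and Hexim2 at 2.16 followed. The order of the cyclin genes changed between libraries: Ccnt1 had 9.46 and 9.35 coding TPM in replicates 1 and 2, and Ccnt2 5.72 and 11.1.

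Against its protein partners, the level of Rn7sk was far higher on both scales. Rn7sk had 406 times the TPM of Cdk9 in replicate 1 and 421 times in replicate 2. Over Larp7 the ratio of TPM was 825 and 680, over Mepce 1062 and 1317, and over the HEXIM genes together 2958 and 2153. Over all 7 proteins together it was 138 and 132. In expected counts, which are not per length, Rn7sk exceeded Cdk9 by 43.2 and 48.7 times and all 7 proteins together by 9.34 and 9.05 times. Ratios of RNA say nothing of the number of protein molecules.

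Between the 2 libraries, 0 of 7 proteins differed by over 2-fold on log2(TPM + 1), against 7.52% of the protein-coding genes of 1 TPM or more on average. The count rests on the pseudocount: the plain TPM ratio of Hexim2 was 2.51, and with a pseudocount of 0.1 Hexim2 alone was over 2-fold, as were 11.4% of those genes. Past 1.5-fold lay 2 of the proteins, Hexim2 and Ccnt2, and 21.8% of those genes. In replicate 2, 6 of 7 proteins were higher on TPM, where 54.6% of those genes were, and 7 of 7 were higher on CPM, where 58.7% were. The median log2 ratio of the proteins, replicate 2 over replicate 1, was 0.40, against 0.04 for those genes. Hexim2 had the largest ratio, 0.88, followed by Ccnt2 at 0.73, Larp7 at 0.50, Hexim1 at 0.40, Cdk9 at 0.19, Ccnt1 at 0.10 and Mepce at -0.06, and Rn7sk had 0.24. On CPM the ratio of Hexim2 was 2.56 (exact 95% counting interval 1.89 to 3.50), that of Ccnt2 1.47 (1.39 to 1.54), that of Larp7 1.46 (1.34 to 1.58), that of Hexim1 1.41 (1.25 to 1.60) and that of Ccnt1 1.02 (0.96 to 1.08). Rn7sk had 1.22 (1.21 to 1.23). These intervals compare 2 libraries and leave out the spread between further samples.

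The spike-in RNA took 0.0119% of counts in replicate 1 and 0.00768% in replicate 2, so scaling to it shifted all genes. Scaled to the spike-in total, the median log2 ratio of the protein-coding genes of 1 TPM or more was 0.68 and 92.8% of them were higher in replicate 2. On that scale 5 of the 8 members were over 2-fold, as were 21.1% of those genes. Relative to the median, Hexim2 stood at 0.74, Ccnt2 at 0.49, Larp7 at 0.46, Mepce and Hexim1 at 0.37, Rn7sk at 0.24, Cdk9 at 0.06 and Ccnt1 at -0.03. RNA per cell and the amount of spike-in added cannot be told apart here. Nor can fewer cells of a kind in a pool and less RNA per cell.

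**Figure D4:**
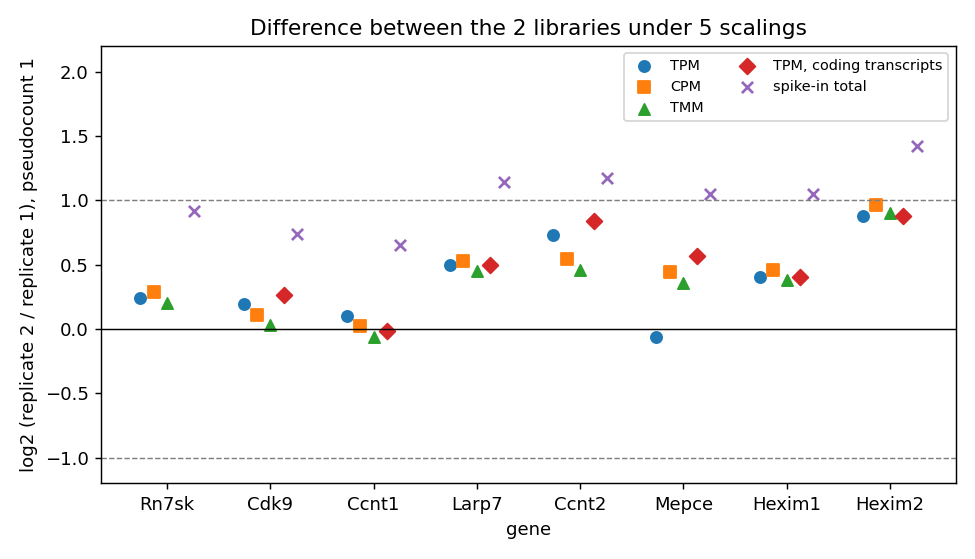
Log2 ratio of replicate 2 over replicate 1 (vertical axis, pseudocount 1) for the 8 genes under 5 scalings, with dashed lines at 2-fold. Hexim2 and Ccnt2 lie highest on TPM, at 0.88 and 0.73, Mepce lies at -0.06 on TPM but above 0 on CPM and on coding transcripts, and Ccnt1 is below 0 with TMM and on coding transcripts.

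The longer RNAs made by RNA polymerase III that are named here were below Rn7sk in both libraries. Rpph1, the RNA of ribonuclease P, had 1302 TPM in replicate 1 and 4811 in replicate 2, and Rmrp, the RNA of ribonuclease MRP, at 966 and 1466 TPM. Rn7s1 and Rn7s2, copies of the signal recognition particle RNA with equal values, stood at 1983 and 1943 TPM each, and how reads split between such copies is uncertain. Rn7sk had 13.4 and 4.28 times the TPM of Rpph1, 18.0 and 14.1 times that of Rmrp, and 4.38 and 5.30 times that of Rn7s1 and Rn7s2 together. The list had 4 of 9 matched genes that reached 1 TPM in both libraries and a median of 6.39 TPM. No share over all non-coding genes is given here, so this count describes the list only. Rny1, Rny3 and Rnu6 were listed at 0 in both libraries, and Rn7s6 at 0 and 0.660 TPM. Rpph1 and Vaultrc5 were over 2-fold apart between the libraries, the latter with 0 and 6.00 counts. Of the protein-coding genes of 1 TPM or more on average, 7.52% were.

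Small nuclear RNAs made by RNA polymerase II serve in splicing and RNA processing. As listed here, with the nucleolar RNAs Rnu3a and Rnu3b1 among them, they were low in these libraries. Rnu1a1, a U1 RNA, had 195 TPM in replicate 1 and 272 in replicate 2, and Rnu2-10, a U2 RNA, at 74.3 and 75.1 TPM, so that Rn7sk had 89.2 and 75.8 times the TPM of the former and 234 and 274 times that of the latter. The list had 3 of 11 matched genes that reached 1 TPM in both libraries and a median of 0.855 TPM. This count, too, has no share over all non-coding genes beside it. Rnu1b6, Rnu3b1, Rnu5g, Rnu7 and Rnu12 were listed at 0 in both libraries, and Rnu1b1 and Rnu1b2 at 0 and 1.71 TPM. Together with Rnu11, at 0 and 31.1 TPM, these last made up the 3 genes of the list over 2-fold apart. Length moved with the levels of these RNAs. Of the 13 RNAs of both lists shorter than 200 bases, 2 were at 1 TPM or more in both libraries and 7 at 0 in both. Of the 7 longer ones, 5 and 1 were. Part of this tally was fixed in advance, since Rnu7 had an effective length of 0 in both libraries. In replicate 1 the effective length was only 2.60 bases for Rny3, 3.64 for Rnu6, 4.88 for Rny1 and 6.02 for Rnu5g. Values of 0 for such RNAs do not show that they were absent. The named size range was above 200 bases, so the levels of the short RNAs cannot be read against that of 7SK.

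All the listed genes for the machinery that transcribes Rn7sk reached 1 TPM in both libraries, where 45.6% of all protein-coding genes did. The same share stands beside the counts of the lists below. RNA polymerase III and the factors known to act at promoters of the 7SK type had 21 of 21 genes that reached 1 TPM in both libraries, with a median of 10.2 TPM. The highest were Tbp, the TATA-binding protein, at 23.7 ± 2.14 TPM (SD, n = 2), and Snapc5, a subunit of the small nuclear RNA activating complex, at 23.6 ± 1.30 TPM. Factors of other polymerase III promoters had 7 of 7 matched genes at that level and a median of 11.6 TPM, led by Gtf3a at 42.9 ± 4.82 TPM and Gtf3c6 at 32.9 ± 12.7 TPM.

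Genes of other proteins known to bind 7SK, some of which hold the RNA once P-TEFb has left, had a higher median level than the 7 protein genes of the set. All 7 were at 1 TPM or more in both libraries, with a median of 283 TPM. Srsf2, a splicing factor, stood at 395 ± 4.64 TPM (SD, n = 2) and Ncl, nucleolin, at 344 ± 2.10 TPM. These proteins have many other RNA partners. Relatives of LARP7 and MEPCE had 6 of 7 genes at that level and a median of 28.1 TPM, led by Ssb, the La protein, at 134 ± 0.0212 TPM and Larp1 at 70.0 ± 4.51 TPM, with Larp6 listed at 0 in both libraries.

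The listed factors that receive or release P-TEFb were present with few exceptions. Factors known to release P-TEFb from 7SK had 6 of 6 genes that reached 1 TPM in both libraries and a median of 60.8 TPM, led by Srsf2 and by Ppp1ca, a phosphatase subunit, at 202 ± 23.3 TPM (SD, n = 2). The super elongation complex, which carries active P-TEFb, had 6 of 9 genes at that level and a median of 6.04 TPM. Aff1, a scaffold of that complex, had 44.5 TPM in replicate 1 and 61.2 in replicate 2, and Aff4, a related scaffold, had a mean of 29.2 ± 5.97 TPM (SD, n = 2). Ell3 was listed at 0 in both libraries, and Eaf2 at 0 and 1.34 TPM, the only gene of that list over 2-fold apart. Ell2, with 2.04 and 0.820 TPM, was the third that did not reach 1 TPM in both.

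RNA of every listed pause and elongation factor, and of every other transcription kinase and cyclin listed, was detected. Pause and elongation factors had 13 of 13 genes that reached 1 TPM in both libraries and a median of 28.2 TPM, led by Polr2a, the largest subunit of RNA polymerase II, at 76.3 ± 3.97 TPM (SD, n = 2) and Supt4a, a subunit of DSIF, at 63.9 ± 2.45 TPM. Other transcription kinases and their cyclins had 12 of 12 and a median of 22.4 TPM, led by Ccnl1 at 71.5 ± 12.7 TPM and Ccnl2 at 47.8 ± 3.63 TPM. Cdk9, at 45.9 TPM, was above Cdk12, a kinase of later elongation, at 28.1 ± 1.00 TPM, and above Cdk7, the kinase of TFIIH, at 4.56 ± 0.700 TPM. In expected counts, which are not per length, Cdk9 was below Cdk12, with 2046 against 3639 in replicate 1 and 1950 against 3487 in replicate 2. Cdk7 had 889 and 987 counts. Cdk12 and Cdk7 were picked from that list as well-known kinases after their values were seen.

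**Figure D5:**
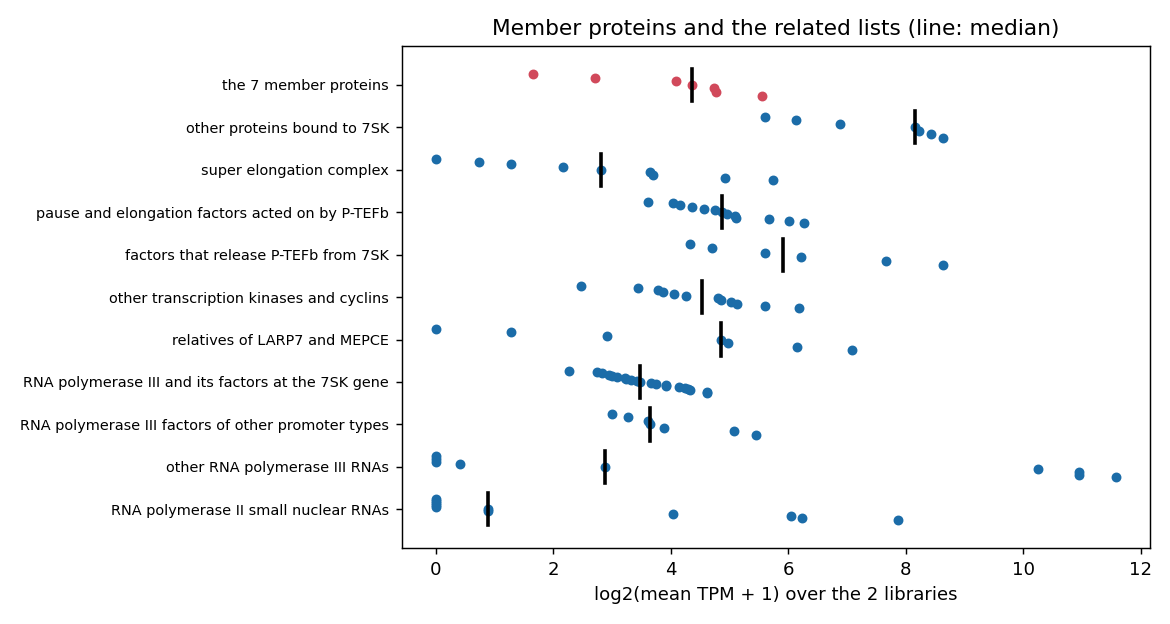
Log2(mean TPM + 1) of each gene of the 7 member proteins (red) and of the 10 related lists (blue), with a line at each median. The member proteins have a median of 19.6 TPM, other proteins bound to 7SK 283 TPM and polymerase III factors at the 7SK gene 10.2 TPM.

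By level in the 2 libraries, the protein-coding gene nearest to each member was Tnfrsf1a for Cdk9 (distance 0.0265 on log2(TPM + 1)), Tsen15 for Ccnt1 (0.0112), Chka for Ccnt2 (0.0214), Exoc4 for Larp7 (0.00676), Ogfr for Mepce (0.00192), Ankrd26 for Hexim1 (0.0108) and Sez6l2 for Hexim2 (0.0271). Rn7sk had no close neighbour, and the nearest non-coding gene, Mir6236, was 1.68 away at 7955 and 8681 TPM. With 2 libraries of 1 group such likeness is one of level only.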

How the data were processed

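Total RNA-seq of 2 GMP libraries was analysed. Reads were aligned to mm10 transcripts of annotation M4, per the text notes deposited beside the tables. Which aligner and quantification tool served, and whether strand was used, is not given in the sources used here. The authors deposited expected counts (estimated reads, not whole), TPM with 1 fixed sum for every library, FPKM per effective length and library size, and, in percent, the share of each gene's TPM on each transcript. Deposited posterior intervals have no stated level.

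Symbols, classes and spans came from GENCODE M21, a later release for the same assembly (GRCm38), through Ensembl identifiers stripped of version. Of 43346 Ensembl rows, 42462 matched. The 97 rows whose identifier was neither an Ensembl one nor a plain number were taken as spike-ins. Members and lists were chosen with earlier results of these data known. Of the genes first listed, 1 that stood in 2 lists is not reported here, and the counts and medians of those lists leave it out. Other genes that stand in 2 lists count in both. Gtf3c2, Rnu6atac and Rnu4atac had no match. The text names every member, member transcripts of 10% or more in either library, the 2 highest genes of each list and those under 1 TPM on average, up to 5 Rn7sk matches with 10 counts or more, and the gene nearest in level. Other genes named were chosen after their values were seen.

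CPM was computed from expected counts and the total of all rows. Log2 differences used a pseudocount of 1, which understates ratios of low genes. Ratios of CPM have exact conditional binomial intervals on counts rounded to whole numbers. Sequences were compared with BLAST 2.17.0 (E-value up to 1e-05). Scalings used edgeR 4.0.16 (TMM) and DESeq2 1.42.0 (size factors) in R 4.3.3, with no gene tested. Other steps used Python 3.11.15, numpy 2.4.6, pandas 2.3.3, scipy 1.17.1 and matplotlib 3.10.9. The fold step was run on simulated data as a check of the code only, with a spread that was not fitted to these libraries. Alternatives were other units, scalings, limits and pseudocounts, coding transcripts alone, posterior mean TPM and each library alone. Protein sequences were not used here.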

Additional observations from a re-analysis of the deposited data

How the results depend on the processing

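No paired analysis was possible because the series has 1 group, and each library left out leaves a single one, so those settings give values with no spread. Cdk9 against Ccnt1 plus Ccnt2 was -1.39 on CPM (log2), 1.14 on protein-coding transcripts, and ran from -0.09 to 0.10 with each library alone, so its direction is not fixed. Ccnt1 against Ccnt2 turned to -0.24 on CPM. Hexim1 against Hexim2 was 2.01 on CPM and 1.44 with a pseudocount of 0.1. The Rn7sk share of counts was 0.449% with Gm42418, Gm26917 and mitochondrial genes out of the total. The count of members over 2-fold was 5 with the spike-in total, 1 (Hexim2) with a pseudocount of 0.1, and 2 (Hexim2 and Ccnt2) at 1.5-fold, where 21.1%, 11.4% and 21.8% of protein-coding genes of 1 TPM or more were past the same limit. The log2 ratio of Mepce between libraries turned to 0.44 on CPM, 0.36 with TMM, 0.35 with DESeq2 size factors, 1.05 with the spike-in total and 0.57 on protein-coding transcripts. That of Ccnt1 turned to -0.06 with TMM, -0.07 with DESeq2 size factors and -0.02 on protein-coding transcripts. Posterior mean TPM, coding transcripts for these ratios, and the adding of all Rn7sk matches were chosen after seeing the data. At 5 TPM in place of 1 TPM, 6 of 8 members passed in both libraries, and on FPKM 7 of 8. The share of all protein-coding genes past these limits is not given here, so these counts describe the members only. Of 157 other values, 113 stayed within the spread of the libraries or on their side of 2-fold, 36 went past these limits and 8, given above, reversed. Many of these outcomes were fixed in advance, so the counts do not measure stability. For levels and transcript shares, each of 2 libraries alone always lies within their SD of the mean. The share of a gene's only transcript cannot move. Levels on FPKM, CPM or TPM rescaled to another total differ from TPM by their scale. Depth limits Hexim2 most, at 63.0 counts in replicate 1.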

Other observations

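Among the 21 genes for RNA polymerase III and its factors at the 7SK gene, 2 were over 2-fold apart between the libraries, a share near the 7.52% of protein-coding genes of 1 TPM or more. Polr3gl, a polymerase III subunit, had 7.47 TPM in replicate 1 and 20.9 in replicate 2. Its counts were 278 and 515. Snapc4, a subunit of the small nuclear RNA activating complex, stood at 11.1 TPM and 27.1 TPM, from 470 and 865 counts. Both were named after their values were seen.

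Rn7sk also matched 9 annotated genes of classes other than misc_RNA, of which 6 had a row in the tables. Those held 4079 expected counts in replicate 1 and 4112 in replicate 2 over their whole length, equal to 4.61% and 4.33% of the Rn7sk count. Their identity to Rn7sk ran from 71.1% to 85.7%.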
